A study of Mus musculus with 31 samples.

Results

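The splicing of genes that form, move, fuse and recycle membrane vesicles was followed in the cortex of 3 mouse models of Huntington's disease (HD). The events were taken by a rule on gene symbols that uses no measured value, though it was chosen with earlier results of these data known. It took families such as the sorting nexins (Snx), Vps proteins, dynamins (Dnm), synaptotagmins (Syt), syntaxins (Stx), clathrin chains (Clt), Rims, Sec and Golga proteins. It also took named endocytic genes such as Bin1, Picalm, Reps2 and the synaptojanins (Synj). This gave 65 splicing events of 1922 in all, in 49 of 1559 gene symbols. Of the 65 events, 58 were listed for all 3 models, and the lists held 61 traffic events for R6/2, 60 for Q150 and 61 for Q175 mice. Bin1 event 8660 was listed for R6/2 and Q150 only, Rims1 event 3745 and the Syt6 event for R6/2 only, the third Sec31a event, entered under its older symbol Sec31l1, for Q150 only, and the Sh3glb1 event, Eps15l1 event 8415 and the event of Itsn1, entered as Itsn, for Q175 only. Cassette exons, which are either kept in the messenger RNA or skipped, made up 64 of the 65 events. The remaining event, in Dnm1, belonged to a class with more than 1 alternative exon, so that its short product is not simply a skipped exon.

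Vesicle traffic carries membrane and protein between the compartments of a cell. COPII proteins such as Sec24b and Sec31a form vesicles at the endoplasmic reticulum, golgins receive them at the Golgi, and SNARE proteins such as the syntaxins drive fusion. At a synapse, Rims proteins hold vesicles at the release site, synaptotagmins sense calcium, and the vesicle membrane is then taken back by clathrin with adaptors such as Picalm and epsin, pinched off by dynamin with help from BAR domain proteins such as Bin1, and uncoated with the help of synaptojanin. Sorting nexins and Vps proteins direct what has been taken up to lysosomes or back to the surface. Many of these genes carry exons that neurons splice differently from other cells.

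The assay was RASL-seq: 2 probes anneal next to each other where 2 exons are joined, and ligated probe pairs are counted by sequencing. Each event had a short count, for the junction without the alternative exon, and a long count, for a junction with it. Exclusion is the percentage that the short count makes of both. RNA came from the cortex of 1 hemisphere of 31 untreated mice, with 1 library per mouse. The R6/2 group held 3 HD mice, which carry a transgene of mutant human huntingtin exon 1 on a mixed B6CBA background, and 3 wild-type (WT) mice. Knock-in mice carry the expansion in their own huntingtin gene, with 150 (Q150) or 175 (Q175) glutamines, and are heterozygous (HET) or homozygous (HOMO) for it. Q150 mice numbered 4 HET and 4 HOMO, and Q175 mice 4 HET and 3 HOMO, as the labels have it, whereas the study's methods give the numbers of HOMO mice of the lines the other way round. Their 10 WT controls had 7 glutamines on either allele, and 5 of them had the Q150 event list and 5 the Q175 list. Each mutant group was set against the WT mice of its own list, so the same controls serve HET and HOMO mice. R6/2 mice were the youngest and Q175 mice the oldest, so age and model cannot be told apart, and the sexes were balanced per the study's methods without being given per mouse. In bulk cortex fewer cells of a type and less RNA per cell cannot be told apart.

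Libraries held 2171709 to 5256516 counts, of which traffic events took 5.23% to 6.49%. The counts behind a traffic event in a mouse had a median of 1014, against 650 over all events, and a lowest value of 21. No pair of mice within a group agreed within sampling noise (lowest chi-square over degrees of freedom 4.26 in 47 pairs), so each mouse counted as a replicate. Intervals on exclusion (Wilson, 95%) cover counting error only, since PCR copies without molecular identifiers are not independent molecules. The lists held no junction with fewer than 4 counts in any mouse, so events whose junction fell to 0 in a few mice may be missing. Mouse numbers fell into a low and a high series in both knock-in lines. Every Q150 group had mice in both series, while all Q175 HET mice were in the low and all Q175 HOMO mice in the high series, with WT mice in both.

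Of the neuronal markers, values are given for Syt1, itself a traffic gene, and for Grin1, an NMDA receptor subunit, and none of their events was at 0. As short plus long counts scaled to an equal library total for all mice (CPM), the Syt1 event ran from 28101 to 33119 in R6/2 WT and from 22753 to 27152 in R6/2 HD mice, with no overlap. It ran from 29806 to 35954 in Q150 WT and from 26300.5 to 30034 in Q150 HOMO mice, and from 25154 to 32950.4 in Q175 WT and from 27748 to 32392 in Q175 HOMO mice, with overlap in both lines. Grin1 event 3900 ran from 3543 to 4209 CPM in R6/2 WT and from 2276 to 2500.5 in R6/2 HD mice, and from 3904 to 4702 in Q175 WT and from 3202 to 3386 in Q175 HOMO mice, with no overlap in either. In Q150 mice it ran from 2803 to 4568 in WT and from 2533 to 3199 in HOMO mice, with overlap, and Grin1 event 3938 overlapped between WT and mutant mice in all 3 models. No astrocyte marker (0 of 7) and no microglial marker (0 of 6) had an event. Oligodendrocyte sums, over 2 to 4 of 8 genes, overlapped between WT and mutant mice in every model, and of 5 endothelial markers Pecam1 alone had an event, at 45.8 to 80.6 CPM in R6/2 WT and 33.4 to 57.6 in R6/2 HD mice. Pecam1 ran from 42.1 to 97.3 CPM in Q150 WT and from 52.4 to 137.6 in Q150 HOMO mice, and its 2 events summed to 1129 to 1347 in Q175 WT and to 973.2 to 1177 in Q175 HOMO mice, with overlap in all 3 models. The part that these differences in cell type markers have in the results below was not tested.

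In R6/2 WT mice the traffic exons covered the whole range of use. Mean exclusion per event had a median of 32.5%, against 41.7% over all events. It lay below 10% for 19 of the 61 events, between 10% and 90% for 36 and above 90% for 6. The lowest was the event of Syt1, the calcium sensor of fast release, at 0.0511% ± 0.00813 (SD, n = 3). Next came the event of Dnm3, a dynamin of synapses, at 0.288% ± 0.0163 (SD, n = 3) and Rims2 event 7111 at 0.504% ± 0.178 (SD, n = 3). At the other end, Rims1 event 3745 stood at 99.2% ± 0.529 (SD, n = 3), the event of Numb, an endocytic adaptor of cell fate decisions, at 98.4% ± 0.471 (SD, n = 3) and Sec31a event 7610 at 97.5% ± 0.355 (SD, n = 3). The traffic events were of ordinary length, with a median span of 6539 bases against 5579 over all events.

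Of the 65 events, 28 belonged to 12 gene symbols with several events, not counting the Sec31a event entered as Sec31l1. In 3 pairs, 1 junction was counted for both events, because its counts were identical in every mouse that had both. In Dnm1l, the long junction of event 3927 was the short junction of event 4328. Golga2 events 3830 and 8265 were linked in the same way, and Eps15l1 events 8415 and 9371 shared their long junction. Changes within such a pair are not independent of each other.

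Positions are given as the files list them. The submitters' processing notes name the mm10 assembly, but 18 of the 65 traffic events lay inside their own gene in the GRCm38 annotation, so the build of the positions is not settled and no sequence was read from them. The Reps2 event lay on chromosome X from 158909788 to 158952210, the Dnm2 event on chromosome 9 from 21290165 to 21294186, the Snx16 event on chromosome 3 from 10419223 to 10420739 and the Vps39 event on chromosome 2 from 120172128 to 120175899. Dnm1l event 4328 lay on chromosome 16 from 16318570 to 16319544 and event 3927 from 16316871 to the same end. Rims1 event 8012 lay on chromosome 1 from 22603423 to 22812399, and Rims2 event 6936 on chromosome 15 from 39342920 to 39366383.

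The first comparison asked which traffic exons differed between R6/2 HD and WT mice. Exclusion was higher in HD mice for exons of the endosomal genes Vps39 and Snx16 and of the endocytic genes Reps2, Bin1 (event 8660) and Clta. Dnm1l event 4328, Rims1 events 8012 and 8441 and Rims2 event 6936, the latter 2 genes of the release site, went the same way. It was lower for Picalm event 4928, Sh3pxd2a event 7655, Vps13c event 8841, Snx14 and Dnm1l event 3927. The remaining events of these genes did not pass. Of 61 events, 18 passed (limma on log2 of short over long counts, adjusted p under 0.05 after Benjamini-Hochberg over all events), 12 with higher and 6 with lower exclusion. This is a share of 29.5%, beside 28.6% of all 1743 events (21.1% higher), a share close to that of the traffic events. The median log2 change of the ratio was 0.06 over traffic events and 0.18 over all events. When each mouse was centred on its median event, 19 traffic events passed, of which 8 were higher, so the balance of directions depends on that scaling. Without WT replicate 6, 10 events passed. Among the 43 that did not pass, the 95% interval of the log2 change lay within 1 in either direction for 27 and reached beyond it for 16.

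By role, 4 of 14 events of clathrin coats and adaptors passed in R6/2 mice, as did 5 of 12 of membrane bending, scission and uncoating. Among vesicle release and SNARE events 3 of 13 passed, and among endosome sorting events 4 of 8. The secretory pathway had 1 of 8, other SH3 domain proteins 1 of 3, lipid transfer 0 of 2 and the exocyst 0 of 1. At an unadjusted p under 0.05 there were 25 events among the 61. The share of all events at that level was not counted, so this number cannot be read as particular to traffic events.

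**Figure D1:**
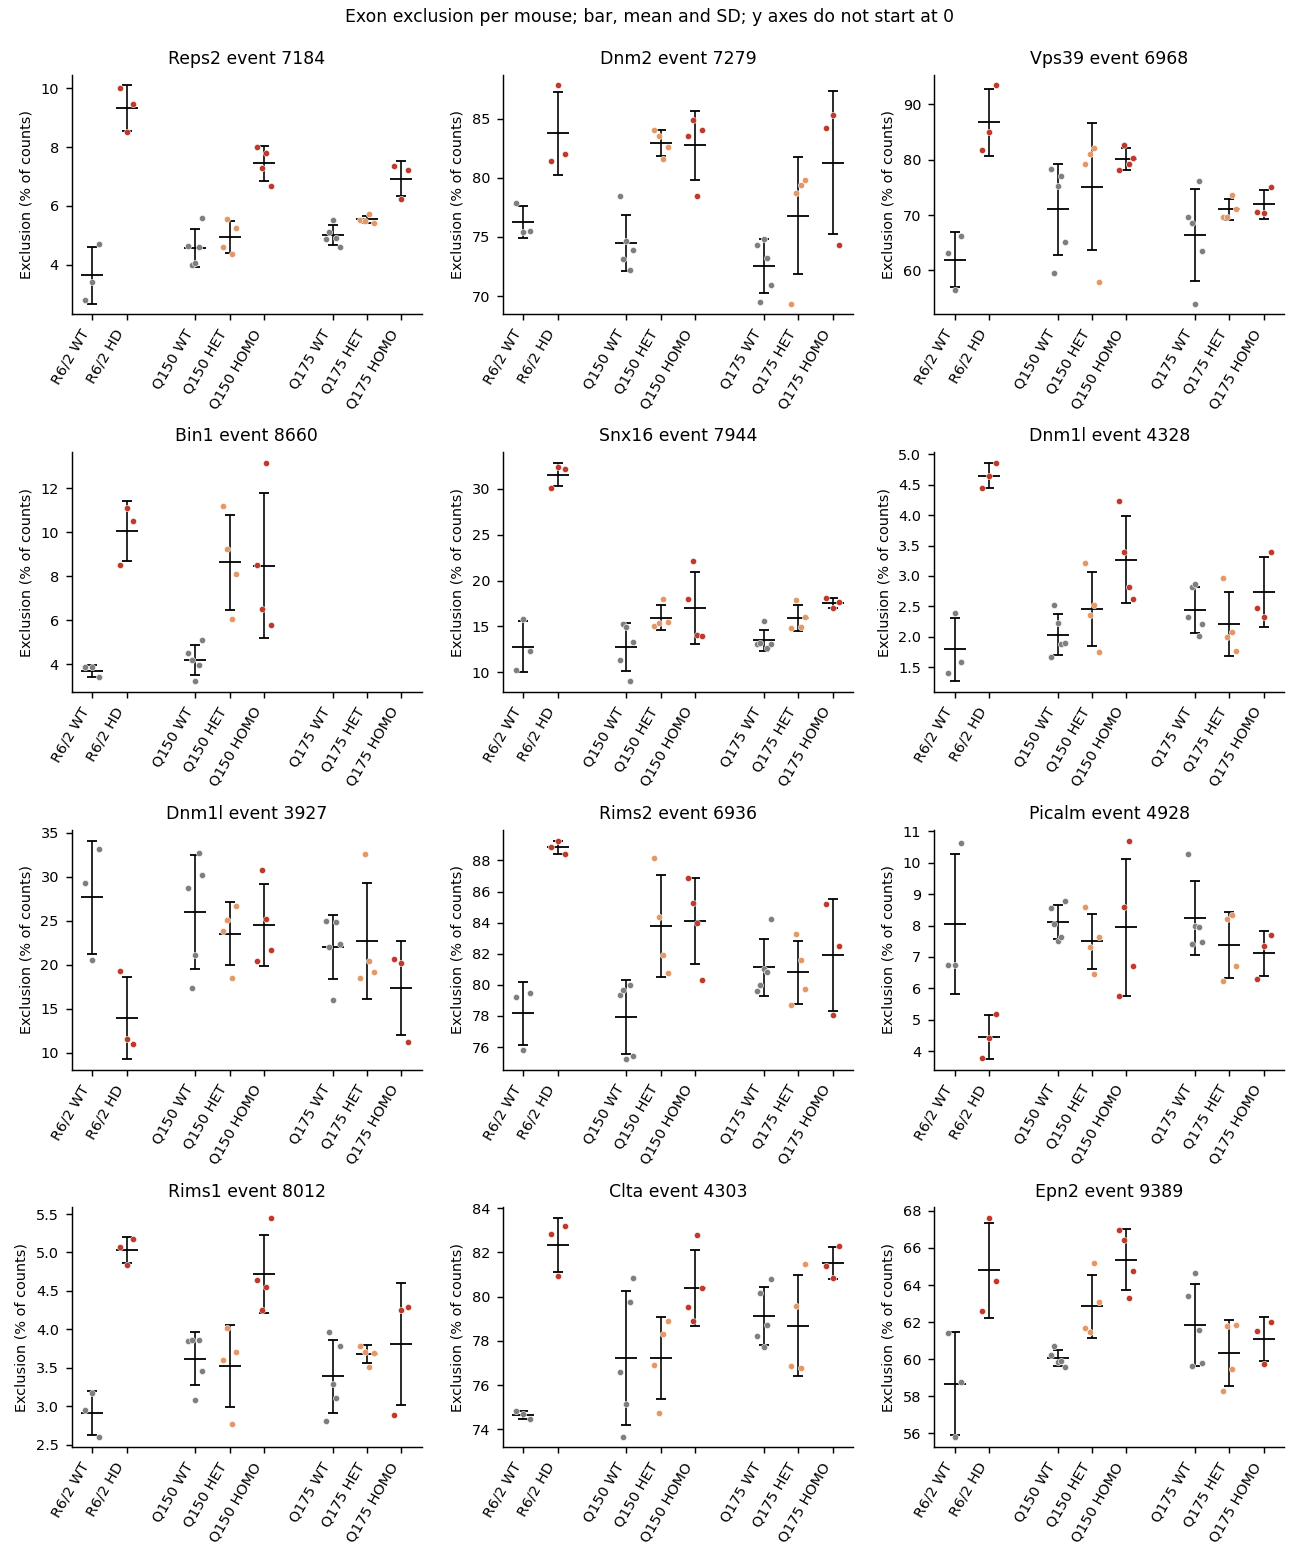
Exclusion in percent of short plus long counts (y axes, which do not start at 0) of 12 traffic events in each mouse of the 8 groups; points are mice, and bars give the mean and SD. The 3 R6/2 HD mice lay clear of the 3 WT mice in all 12 panels, which were picked partly for that, while the knock-in groups overlap in many of them; Bin1 event 8660 was not listed for Q175.

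Among the endosome genes, Snx16, a sorting nexin of endosomes, had the smallest adjusted p of all traffic events. Exclusion was 10.2%, 15.8% and 12.4% in the WT mice and 30.1%, 32.4% and 32.1% in the HD mice. Every HD mouse lay far above every WT mouse, and the log2 ratio was 1.67 ± 0.17 (SE) higher (limma adjusted p = 2.81e-05). The short junction rose from 42.4 ± 12.2 to 152.9 ± 12.5 CPM (SD, n = 3), while the long junction stood at 285.9 ± 13.0 and 332.2 ± 36.4. Vps39 encodes a subunit of the HOPS complex, which tethers late endosomes to lysosomes. Its exclusion was 63.2%, 56.5% and 66.2% in WT and 81.8%, 84.9% and 93.4% in HD mice, the largest log2 change of the traffic events that passed (2.08 ± 0.42 SE, limma adjusted p = 0.00263). Here the long junction was the one that differed, at 12.7 ± 0.773 CPM in WT and 4.17 ± 2.16 in HD mice (SD, n = 3). The event had 62 to 142 counts per mouse, and its widest interval spanned 24.0 percentage points. Vps13c, a lipid transfer protein of membrane contact sites, fell from 12.2% ± 0.976 to 9.11% ± 1.14 (SD, n = 3; log2 -0.48 ± 0.15 SE, limma adjusted p = 0.0297) in event 8841. Snx14 event 4427 fell from 8.82% ± 1.22 to 6.87% ± 0.257 (SD, n = 3; log2 -0.38 ± 0.13 SE, limma adjusted p = 0.048). The Vps13c call was lost without any 1 of 3 mice and the Snx14 call without any 1 of 5.

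Among coat and adaptor genes, Reps2, an EH domain protein that links endocytosis to Ral signalling, had exclusion of 2.80%, 3.42% and 4.69% in WT and 10.03%, 8.50% and 9.47% in HD mice. The groups were far apart beside intervals of at most 1.63 points per mouse, and the log2 ratio was 1.47 ± 0.18 (SE) higher (limma adjusted p = 8.02e-05). The short junction was again the one that differed, at 56.7 ± 10.5 CPM in WT and 141.4 ± 16.7 in HD mice (SD, n = 3), beside a long junction at 1526 ± 148.5 and 1371 ± 63.6. Clta, clathrin light chain A, whose alternative exons are known from neurons, had 74.8%, 74.7% and 74.5% in WT and 82.8%, 80.9% and 83.2% in HD mice. The 3 WT mice were within less than 1 point of each other and all below the HD mice (log2 0.66 ± 0.13 SE, limma adjusted p = 0.00171). Picalm, which recruits clathrin and shapes the vesicle, went the other way in event 4928, with 6.75%, 6.74% and 10.6% in WT and 3.78%, 4.41% and 5.18% in HD mice (log2 -0.89 ± 0.27 SE, limma adjusted p = 0.0269). That call was lost without any 1 of 3 mice. Epn2, an epsin that bends membrane and binds ubiquitinated cargo, had 61.4%, 55.8% and 58.8% in WT and 62.6%, 67.6% and 64.2% in HD mice for event 9389. The groups nearly touched (log2 0.38 ± 0.13 SE, limma adjusted p = 0.0426), and the call was lost after centring (adjusted p = 0.289) and without any 1 of 4 mice.

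Among genes of membrane bending and scission, Bin1, an amphiphysin with a membrane-curving BAR domain, had event 8660 at 3.87%, 3.88% and 3.41% in WT and 8.54%, 11.1% and 10.5% in HD mice. The groups did not overlap (log2 1.47 ± 0.38 SE, limma adjusted p = 0.012), but counts were few, 82 to 190 per mouse, with intervals up to 12.4 points wide. The long junction stood at 52.3 ± 4.49 CPM in WT and 28.4 ± 9.41 in HD mice, and the short one at 2.03 ± 0.304 and 3.23 ± 1.30 (SD, n = 3). Dnm2, the dynamin found in most tissues, had 77.9%, 75.4% and 75.5% in WT and 81.5%, 87.8% and 82.0% in HD mice. All HD mice lay above the WT mice (log2 0.70 ± 0.24 SE, limma adjusted p = 0.0431), yet the call was lost without any 1 of 4 mice and after centring (adjusted p = 0.124). Dnm1, the dynamin of neurons, had its short product at 63.9% ± 2.00 in WT and 53.3% ± 5.76 in HD mice (SD, n = 3; log2 -0.63 ± 0.18 SE, limma adjusted p = 0.0204), and that call was lost without either of 2 mice.

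Dnm1l encodes the dynamin-related protein that divides mitochondria and peroxisomes, and its 2 linked events moved in opposite directions in R6/2 mice. For event 4328 exclusion was 1.40%, 2.39% and 1.59% in WT and 4.44%, 4.64% and 4.86% in HD mice (log2 1.45 ± 0.19 SE, limma adjusted p = 0.000128). For event 3927 it was 29.3%, 20.5% and 33.1% in WT and 19.3%, 11.6% and 10.96% in HD mice (log2 -1.26 ± 0.33 SE, limma adjusted p = 0.012), a call lost without WT replicate 6. The groups did not overlap in either event. The junction counted in both events stood at 30.5 ± 9.10 CPM in WT and 109.7 ± 7.60 in HD mice (SD, n = 3), which enters event 4328 as the short and event 3927 as the long count. The 2 junctions that the events do not share differed less, from 1673 ± 36.1 to 2248 ± 55.9 for the long junction of event 4328 and from 11.2 ± 1.59 to 17.8 ± 5.99 for the short junction of event 3927. The same junction was at 39.8 ± 4.81 CPM in Q150 WT mice (SD, n = 5) and 64.9 ± 13.4 in Q150 HOMO mice (SD, n = 4). In Q175 mice it was at 41.9 ± 7.20 in WT (SD, n = 5) and 54.8 ± 9.03 in HOMO mice (SD, n = 3).

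**Figure D2:**
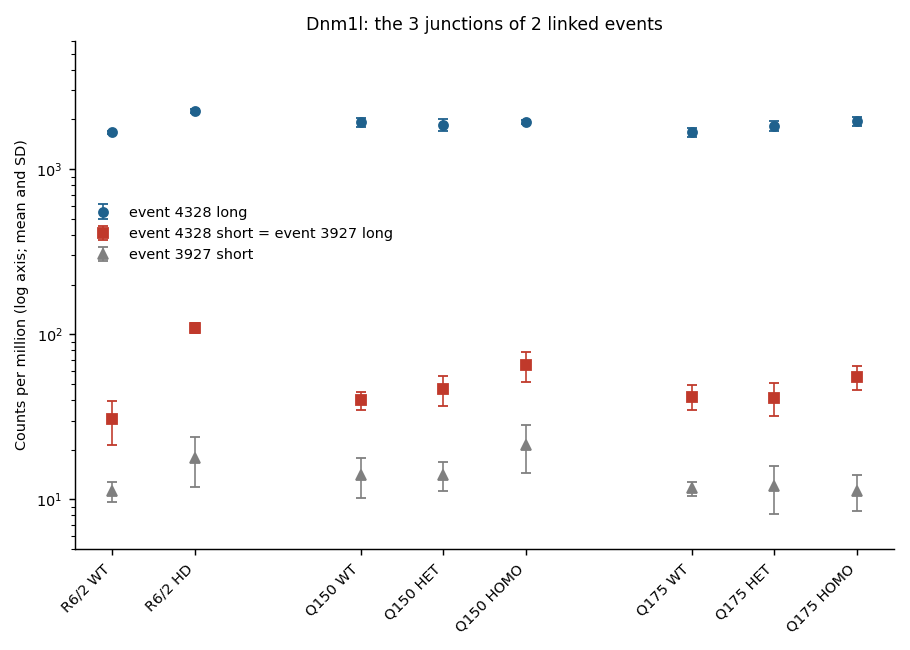
CPM (log axis) of the 3 junctions that make up Dnm1l events 4328 and 3927, as group means with SD. The shared junction (squares) was at 30.5 in R6/2 WT and 109.7 in R6/2 HD mice, a larger step than that of the long junction of event 4328 above it or the short junction of event 3927 below it.

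Among release genes, Rims2, a scaffold of the presynaptic release site, had event 6936 at 79.2%, 75.8% and 79.5% in WT and 88.9%, 89.3% and 88.4% in HD mice. All HD mice lay above all WT mice (log2 1.15 ± 0.18 SE, limma adjusted p = 0.000497). Its relative Rims1 had event 8012 at 2.95%, 3.17% and 2.61% in WT and 5.07%, 4.84% and 5.18% in HD mice, again without overlap (log2 0.82 ± 0.16 SE, limma adjusted p = 0.00182). The long junction of event 8012 was the one that differed, at 1278.5 ± 33.3 CPM in WT and 662.2 ± 32.6 in HD mice (SD, n = 3). The short junction did not rise, at 38.3 ± 3.40 and 35.1 ± 1.97. Rims1 event 8441, which shares a boundary with event 8012, rose from 67.3% ± 1.22 to 75.0% ± 4.62 (SD, n = 3; log2 0.55 ± 0.16 SE, limma adjusted p = 0.0222), a call lost without any 1 of 4 mice and after centring (adjusted p = 0.118). In the secretory pathway, Sec24b, which picks cargo for COPII vesicles, rose from 8.26% ± 0.206 to 12.1% ± 0.701 (SD, n = 3; log2 0.61 ± 0.19 SE, limma adjusted p = 0.0321), a call lost without any 1 of 5 mice and after centring (adjusted p = 0.121). Sh3pxd2a, a scaffold of podosomes, had event 7655 at 82.2% ± 1.11 in WT and 74.7% ± 3.65 in HD mice (SD, n = 3; log2 -0.64 ± 0.16 SE, limma adjusted p = 0.0104). Without the variance trend the R6/2 calls of Dnm2, Dnm1, Sh3pxd2a, Rims1 event 8441, Vps13c, Snx14 and Epn2 were lost.

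In the second comparison, Q150 HOMO mice were set against the WT mice of their list. Of 60 events 12 passed, 10 higher and 2 lower, a share of 20% beside 23.9% of all 1785 events (19.8% higher), and the median log2 change was 0.18 over traffic events and 0.19 over all events. By role these were 3 of 14 coat and adaptor events (Reps2, Itsn2, Epn2), 5 of 12 bending, scission and uncoating events (Bin1, Dnm2, Dnm1l event 4328, Dnm1, Synj1), 3 of 11 release and SNARE events (Rims1, Rims2, Stx18) and 1 of 8 endosome events (Snx14). None of 9 secretory events and none of 3 other SH3 domain, 2 lipid transfer and 1 exocyst events passed. After centring on the median event 7 passed, 3 of them higher, and Bin1, Rims2, Itsn2, Synj1, Snx14, Rims1 and Epn2 were no longer among them. Without HOMO replicate 1, 4 events passed. Of the 48 that did not pass, 39 had a 95% interval within a log2 change of 1 and 9 had one that reached beyond it.

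Reps2 had exclusion of 4.64%, 3.99%, 4.04%, 4.62% and 5.57% in Q150 WT mice, of 4.61%, 5.56%, 4.37% and 5.23% in HET mice, and of 8.01%, 7.31%, 7.79% and 6.66% in HOMO mice. All HOMO mice lay above all others, while HET and WT mice overlapped. The log2 ratio was 0.75 ± 0.13 (SE) higher in HOMO mice (limma adjusted p = 0.000205), and within the series of mouse numbers the means were 4.22% in WT and 7.66% in HOMO mice of the low and 5.09% and 7.23% of the high series. Dnm2 had 78.4%, 73.2%, 74.6%, 72.2% and 73.9% in WT, 84.0%, 83.5%, 81.6% and 82.6% in HET and 83.5%, 84.9%, 78.5% and 84.1% in HOMO mice. Here every HET mouse lay with the HOMO mice, above every WT mouse, and the log2 change was 0.73 ± 0.17 (SE) for HOMO (limma adjusted p = 0.00332) as for HET mice (limma adjusted p = 0.0186). Within the series Dnm2 stood at 75.4% in WT and 84.2% in HOMO mice of the low series and at 73.1% and 81.3% of the high series.

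Bin1 event 8660 had 4.50%, 4.18%, 3.24%, 3.96% and 5.10% in WT, 11.2%, 9.24%, 6.04% and 8.11% in HET and 8.54%, 6.50%, 13.1% and 5.79% in HOMO mice. All mutant mice lay above all WT mice, with a wide spread among them (HOMO log2 1.01 ± 0.32 SE, limma adjusted p = 0.0242), and the call was lost without any 1 of 3 mice. Dnm1l event 4328 had 1.66%, 2.52%, 2.22%, 1.87% and 1.90% in WT, 3.22%, 2.36%, 2.52% and 1.74% in HET and 4.23%, 3.39%, 2.82% and 2.63% in HOMO mice. HOMO mice lay above every WT mouse, and HET mice spread over the WT range and above it (HOMO log2 0.69 ± 0.18 SE, limma adjusted p = 0.00753). Event 3927, linked to it, did not pass in Q150 HOMO mice.

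Rims2 event 6936 had 79.3%, 79.7%, 75.2%, 80.0% and 75.4% in Q150 WT, 88.2%, 84.4%, 81.9% and 80.8% in HET and 86.9%, 85.2%, 84.0% and 80.3% in HOMO mice. Mutant mice lay above WT mice, some by less than 1 point (HOMO log2 0.59 ± 0.18 SE, limma adjusted p = 0.0233), and the call was lost without any 1 of 3 mice. Rims1 event 8012 had 3.85%, 3.86%, 3.09%, 3.86% and 3.45% in WT and 4.64%, 4.25%, 4.56% and 5.44% in HOMO mice, while HET mice overlapped WT (HOMO log2 0.40 ± 0.15 SE, limma adjusted p = 0.0492). That call, just inside the threshold, was lost without any 1 of 11 mice. Epn2 event 9389 had 60.2%, 60.7%, 59.8%, 59.9% and 59.6% in WT, 61.7%, 61.5%, 65.2% and 63.1% in HET and 67.0%, 66.4%, 63.3% and 64.8% in HOMO mice. All mutant mice lay above all WT mice (HOMO log2 0.33 ± 0.10 SE, limma adjusted p = 0.0172), and the call was lost without HOMO replicate 1.

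Events of 4 more genes passed in Q150 HOMO mice but not in R6/2 or Q175 mice in the same event, or in the opposite direction. Stx18, a SNARE of the endoplasmic reticulum, fell from 6.90% ± 2.27 (SD, n = 5) to 3.83% ± 1.21 (SD, n = 4; log2 -0.88 ± 0.26 SE, limma adjusted p = 0.0172), a call lost without any 1 of 3 mice. Itsn2, a scaffold that gathers endocytic proteins, rose from 27.9% ± 3.86 (SD, n = 5) to 35.9% ± 3.15 (SD, n = 4; log2 0.54 ± 0.15 SE, limma adjusted p = 0.00992). Synj1 event 8674, in the phosphatase that removes clathrin coats at synapses, rose from 9.94% ± 1.35 (SD, n = 5) to 13.3% ± 2.24 (SD, n = 4; log2 0.47 ± 0.16 SE, limma adjusted p = 0.0408), a call lost without any 1 of 7 mice. Snx14, which fell in R6/2 mice, rose from 7.66% ± 1.38 (SD, n = 5) to 10.1% ± 0.915 (SD, n = 4; log2 0.45 ± 0.13 SE, limma adjusted p = 0.0172), a call lost without HOMO replicate 1. The WT and HOMO mice of these 4 events overlapped. Against all 10 knock-in WT mice the calls of Itsn2 (adjusted p = 0.0529) and Snx14 (adjusted p = 0.0626) were lost in limma. The short product of Dnm1 was lower, as in R6/2 mice, at 62.6% ± 6.63 in 5 WT mice and 53.8% ± 2.21 in 4 HOMO mice (mean and SD; log2 -0.53 ± 0.17 SE, limma adjusted p = 0.0299), with overlap and with a call lost without any 1 of 6 mice. Without the variance trend the Q150 HOMO calls of Stx18, Dnm1, Synj1, Snx14 and Rims1 were lost, and with only WT and HOMO mice fitted those of Synj1 and Rims1.

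The third comparison set Q175 HOMO mice against the WT mice of their list. Of 61 events 4 passed, all with higher exclusion, beside 7.07% of all 1839 events (5.6% higher), and the median log2 change was 0.069 over traffic events and 0.068 over all events. The 4 events were those of Reps2, Dnm2, Snx16 and Synj2, that is 1 of 16 coat, 2 of 12 scission and uncoating and 1 of 8 endosome events. After centring 8 events passed, 3 of them higher. Without HOMO replicate 1, and also without HOMO replicate 2, 2 events passed. Reps2 exclusion was 4.88%, 5.10%, 5.52%, 4.90% and 4.59% in Q175 WT, 5.51%, 5.49%, 5.73% and 5.42% in HET and 7.35%, 6.23% and 7.21% in HOMO mice. Each HOMO mouse lay above every other mouse of the line (log2 0.50 ± 0.11 SE, limma adjusted p = 0.00256), and the call held without any 1 mouse. Dnm2 had 74.4%, 69.5%, 74.8%, 73.3% and 70.9% in WT, 69.4%, 78.7%, 79.4% and 79.8% in HET and 84.2%, 85.3% and 74.3% in HOMO mice. The lowest HET mouse lay just below the WT mice and the other HET mice above them, while 1 HOMO mouse lay within the WT range and the others above it (HOMO log2 0.75 ± 0.20 SE, limma adjusted p = 0.0142), and the call was lost without HOMO replicate 1 or 2.

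Snx16 had 13.1%, 13.1%, 15.5%, 12.6% and 13.1% in Q175 WT, 14.9%, 17.9%, 14.9% and 16.1% in HET and 18.1%, 17.0% and 17.7% in HOMO mice. HOMO mice lay above all WT mice (log2 0.45 ± 0.13 SE, limma adjusted p = 0.0271), a call lost without any 1 of 4 mice and after centring (adjusted p = 0.0682). Synj2, a synaptojanin of broad expression, rose from 82.9% ± 0.877 (SD, n = 5) to 87.5% ± 1.68 (SD, n = 3; log2 0.54 ± 0.14 SE, limma adjusted p = 0.0101), a call lost without HOMO replicate 3. With the series of mouse numbers as a term Reps2 (adjusted p = 0.0088) and Synj2 (adjusted p = 0.0293) still passed in limma, whereas Dnm2 (adjusted p = 0.059) and Snx16 (adjusted p = 0.0523) did not. Without the variance trend Reps2 alone of the 4 still passed. Among the 57 events that did not pass, the 95% interval lay within a log2 change of 1 for 46.

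HET mice gave few calls. In Q150 HET mice 1 of 60 events passed, the Dnm2 event described above, beside 3.47% of all events (3.03% higher), and it was lost without HET replicate 1, HET replicate 2 or WT replicate 4. With the series as a term 5 traffic events passed there. In Q175 HET mice 0 of 61 events passed by limma, beside 0.598% of all events at the same adjusted threshold. At an unadjusted p under 0.05 there were 5, and the share of all events at that level was not counted. Between HOMO and HET mice 1 of 60 Q150 events passed, Reps2 (log2 0.63 ± 0.14 SE, limma adjusted p = 0.0146), beside 2.18% of all events, and it was lost without HET replicate 1, HET replicate 3 or HOMO replicate 1, after centring and without the variance trend. In Q175 mice 0 of 61 passed between HOMO and HET, beside 0.816% of all events at the same adjusted threshold. Here 4 had an unadjusted p under 0.05, again without a count over all events. When the ratio was regressed on mutant allele number, 12 of 60 Q150 events passed (23.4% of all events) and 4 of 61 Q175 events (7.34% of all events). The Q175 events with a slope were those of the HOMO comparison, and 2 events passed without HOMO replicate 1. In Q150, Vps26a, a subunit of the retromer that retrieves proteins from endosomes, took the place of Rims1, at 21.3% ± 3.27 in WT (SD, n = 5), 23.8% ± 4.02 in HET and 26.3% ± 2.89 in HOMO mice (SD, n = 4), with a limma adjusted p = 0.0481 for the slope.

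**Figure D3:**
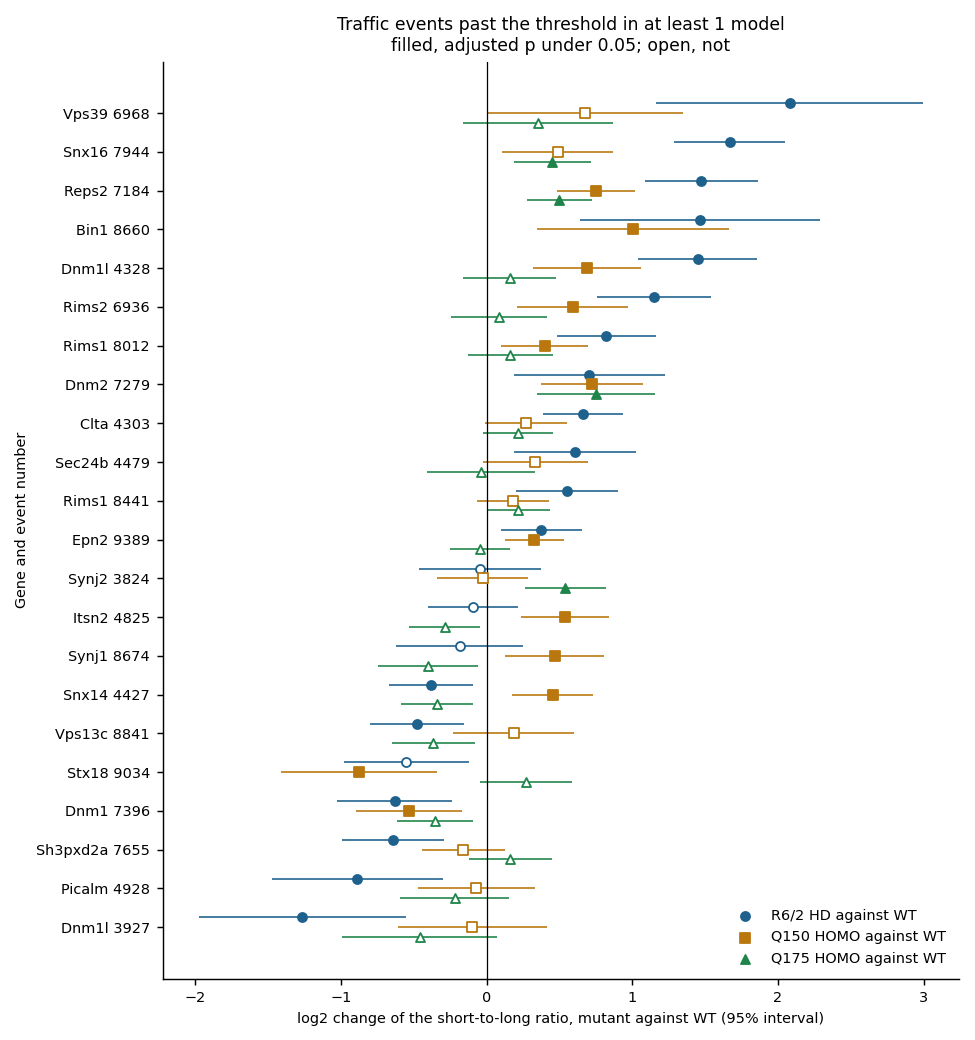
Change against WT in log2 of short over long counts (x axis) with its 95% interval for the 22 traffic events that passed in at least 1 of R6/2 HD mice (circles), Q150 HOMO mice (squares) and Q175 HOMO mice (triangles); filled symbols passed at an adjusted p under 0.05. Reps2 and Dnm2 are filled in all 3 models, and Vps39, Dnm1l event 4328 and Snx16 lie farthest to the right in R6/2 relative to Q175 HOMO mice.

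Across the models, 22 of the 65 events, in 20 genes, passed in at least 1 comparison of R6/2 HD or HOMO mice, and 43 in none, where over all events 698 of 1922 passed in at least 1. The WT mice of the 3 comparisons were different animals. Of 59 events tested in both R6/2 and Q150 mice, 9 passed in both, which is 9 of 18 R6/2 and 9 of 12 Q150 HOMO calls, and 8 of them changed in the same direction, Snx14 being the exception. Over all events 245 passed in both, of 493 R6/2 and 415 Q150 HOMO calls, 240 of them in the same direction. R6/2 and Q175 HOMO shared 3 of 17 and 4 calls (Reps2, Dnm2 and Snx16), all in the same direction, beside 99 of 495 and 128 over all events. Q150 and Q175 HOMO mice shared 2 of 11 and 4 calls, beside 81 of 419 and 129 over all events. These were Reps2 and Dnm2, the events that passed in all 3. Over all events 68 of 1662 did so. Reps2 in all 3 models and Dnm2 in Q150 HOMO mice passed without any 1 mouse.

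The size of a change was then compared between models by the difference of the log2 changes in 1 fit. Between R6/2 and Q150 HOMO mice 3 of 59 events differed, beside 6.96% of all events. Snx16 was larger in R6/2 (difference 1.18 ± 0.29 SE, limma adjusted p = 0.0118), as was Reps2 (0.72 ± 0.22 SE, limma adjusted p = 0.046), and Snx14 had opposite signs (-0.84 ± 0.20 SE, limma adjusted p = 0.0123). The Reps2 difference was lost without any 1 of 14 mice and the Snx16 difference without R6/2 WT replicate 3, when 1 event differed. In Q150 HOMO mice Snx16 had 18.0%, 22.2%, 14.0% and 13.9% beside 11.3%, 15.2%, 14.96%, 9.02% and 13.2% in WT, with overlap, and did not pass (log2 0.49 ± 0.19 SE, limma adjusted p = 0.0592). Within each mouse-number series these groups did not overlap, at 11.3% to 15.2% in WT against 18.0% to 22.2% in HOMO mice of the low series and at 9.02% to 13.2% against 13.9% to 14.0% in the high series. Those groups held 3 or 2 mice each, few enough to separate by chance, and the split was not tested.

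Between R6/2 and Q175 HOMO mice 8 of 58 events differed, beside 13.0% of all events. The changes of Vps39 (difference 1.73 ± 0.46 SE), Dnm1l event 4328 (1.29 ± 0.26 SE), Snx16 (1.22 ± 0.21 SE), Rims2 event 6936 (1.06 ± 0.24 SE) and Reps2 (0.97 ± 0.19 SE) were all larger in R6/2 and stayed past the threshold without any 1 mouse. Sh3pxd2a (-0.80 ± 0.22 SE), Stx18 (-0.82 ± 0.27 SE) and Rims1 event 8012 (0.66 ± 0.22 SE) made up the rest. Rims1 was lost without any 1 of 10 mice, Stx18 without any 1 of 9 and Sh3pxd2a without Q175 HOMO replicate 1, when 5 events differed. With the series of mouse numbers as a term Stx18 (limma adjusted p = 0.184) and Rims1 (limma adjusted p = 0.0782) no longer passed, nor did either without the variance trend, nor Rims1 after centring. In Q175 HOMO mice Vps39 stood at 70.6%, 70.3% and 75.0%, within the WT range of 54.0% to 76.2%. Between Q150 and Q175 HOMO mice 4 of 58 events differed, beside 3.41% of all events. They were Itsn2 (0.82 ± 0.20 SE), Snx14 (0.79 ± 0.19 SE), Synj1 event 8674 (0.87 ± 0.24 SE) and Stx18 (-1.15 ± 0.33 SE), and none of them passed by limma without Q175 HOMO replicate 1 or 2, or without the variance trend. Without Q150 HOMO replicate 1, or without WT replicate 1, 6, 8 or 9, 2 events differed. With the series as a term Stx18 no longer passed (limma adjusted p = 0.0738), nor did Synj1 after centring (limma adjusted p = 0.0658).

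The sum of both junctions gives a further readout of the same events, relative to all counts of the library. In R6/2 mice it passed for 32 of 61 events, 21 higher and 11 lower, beside 44.4% of all events (29.5% higher), and 12 of the 18 events that passed by ratio passed by sum too. The largest fall was that of Rims1 event 3745, listed for R6/2 only, at 446.4, 499.6 and 480.8 CPM in WT and 91.3, 101.6 and 101.7 in HD mice (log2 -2.27 ± 0.09 SE, limma adjusted p = 1.63e-09). Its exclusion stayed near 100% in both groups (99.2% and 98.1%), so nearly all of its counts came from the short junction. Syt7, a synaptotagmin of slow release and vesicle resupply, fell from 35.0 ± 7.03 to 17.4 ± 4.55 CPM (SD, n = 3; log2 -1.02, limma adjusted p = 0.0026). Among those that rose were Dnm1l event 3927 (log2 1.62, limma adjusted p = 2.48e-06), through the shared junction given above, and Exoc7, a subunit of the exocyst, from 14.0 ± 1.02 to 26.0 ± 4.26 CPM (SD, n = 3; log2 0.87, limma adjusted p = 0.0033).

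All 3 Rims1 events fell in R6/2 mice, and those measured in the knock-in lines fell in HOMO mice too. Rims1 event 8012 had 1283, 1320.2 and 1347 CPM in R6/2 WT and 735, 689 and 668 in HD mice (log2 -0.92 ± 0.07 SE, limma adjusted p = 7.38e-07). It had 1251, 1163, 1132, 993 and 1111 in Q150 WT and 801, 763, 882 and 908 in Q150 HOMO mice (log2 -0.43 ± 0.07 SE, limma adjusted p = 0.00239). In Q175 it ran from 1288 to 1328 in WT and was 1114, 951 and 944 in HOMO mice (log2 -0.38 ± 0.07 SE, limma adjusted p = 0.00315). None of these groups overlapped. Rims1 event 8441 fell likewise in R6/2 (log2 -0.74), Q150 HOMO (-0.45) and Q175 HOMO mice (-0.19). The fall was not limited to HOMO mice, though no sum passed in HET mice. Event 8012 ran from 951 to 1183 CPM in Q175 HET mice, below every WT mouse, and from 1050 to 1094 in Q150 HET mice, within the WT range. Event 8441 ran from 598 to 650 in Q175 HET and from 517 to 602 in Q150 HET mice, below every WT mouse of their lists.

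The 2 Rims2 events did not move together. Event 7111, at under 1% exclusion, fell in R6/2 (log2 -0.59), Q150 HOMO (-0.32) and Q175 HOMO mice (-0.30). Event 6936 rose in R6/2 (0.79) and Q150 HOMO mice (0.41), both past the threshold, and stood at 0.01 in Q175 HOMO mice (limma adjusted p = 0.955). The Syt1 event given above was also lower in R6/2 HD mice, and Grin1 event 3900 in R6/2 HD and Q175 HOMO mice, and their part in the Rims values was not tested.

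**Figure D4:**
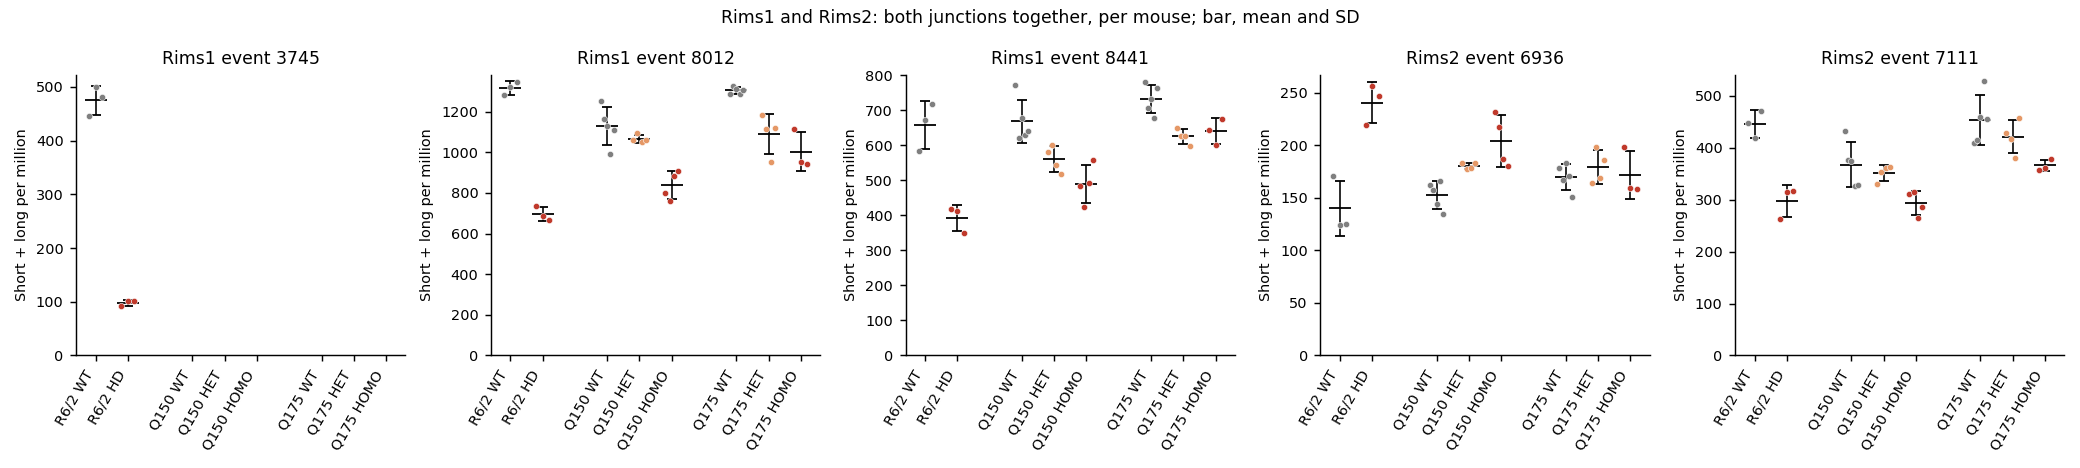
Short plus long CPM (y axes from 0) of the 3 Rims1 and 2 Rims2 events in each mouse; points are mice, and bars give the mean and SD. Rims1 event 8012 fell from 1283 to 1347 CPM in R6/2 WT to 668 to 735 in R6/2 HD mice and was lower in Q150 and Q175 HOMO mice as well, while Rims2 event 6936 was higher in R6/2 HD mice; event 3745 was not listed for the knock-in lines.

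In Q150 HOMO mice the sum passed for 12 of 60 events, 7 higher, beside 14.1% of all events (9.36% higher), and 4 events passed by ratio and by sum. Without HOMO replicate 2 it passed for 6 events, and without HOMO replicate 1 for 7. Both Rims1 events and Rims2 event 6936 led by adjusted p, and Dnm1l event 3927 (log2 0.66, limma adjusted p = 0.00886) and Snx4, a sorting nexin of recycling endosomes (0.36, limma adjusted p = 0.0108), followed. In Q175 HOMO mice it passed for 6 of 61 events, 3 higher, beside 12.8% of all events (7.01% higher), none of which passed by ratio. Besides Rims1 and Rims2 these were Golga2 event 8085 (0.26, limma adjusted p = 0.00883), Dnm1l event 4328 (0.23, limma adjusted p = 0.0275) and Clta (0.21, limma adjusted p = 0.0373). With the series as a term 3 of the 61 passed, as did 2 without HOMO replicate 1 and 3 without HOMO replicate 2. In HET mice 0 of 60 Q150 events passed by limma, beside 0.84% of all events, and 0 of 61 Q175 events, beside 0.109% of all events. At an unadjusted p under 0.05 there were 13 Q150 and 10 Q175 events, and the share of all events at that level was not counted.

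Exclusion per mouse was also averaged over the traffic events of its list. It was 39.3% ± 0.985 in R6/2 WT and 39.9% ± 0.361 in HD mice (SD, n = 3), and 0 of 3 HD mice lay above every WT mouse. Over all events the same means were 45.5% ± 0.0998 and 47.2% ± 0.255. Q150 mice stood at 39.0% ± 0.207 in WT (SD, n = 5), 39.8% ± 0.185 in HET and 40.3% ± 0.329 in HOMO mice (SD, n = 4), and all 4 HET and all 4 HOMO mice lay above every WT mouse. The same order was seen over all events, with means of 44.6% ± 0.175 in WT (SD, n = 5), 45.5% ± 0.145 in HET and 46.4% ± 0.482 in HOMO mice (SD, n = 4). In Q175 mice the means were 37.2% ± 0.367 in WT (SD, n = 5), 37.3% ± 0.617 in HET (SD, n = 4) and 37.5% ± 0.169 in HOMO mice (SD, n = 3), with 2 of 4 HET and 1 of 3 HOMO mice above every WT mouse. Over all events the Q175 means were 44.95% ± 0.267 in WT (SD, n = 5), 45.2% ± 0.433 in HET (SD, n = 4) and 45.6% ± 0.172 in HOMO mice (SD, n = 3), and the mutant and WT mice overlapped. No test was made of a mean over chosen events. Taken as a median over events, the R6/2 difference of 0.661 points became -1.34 and the Q175 HOMO difference of 0.379 points became -2.32.

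**Figure D5:**
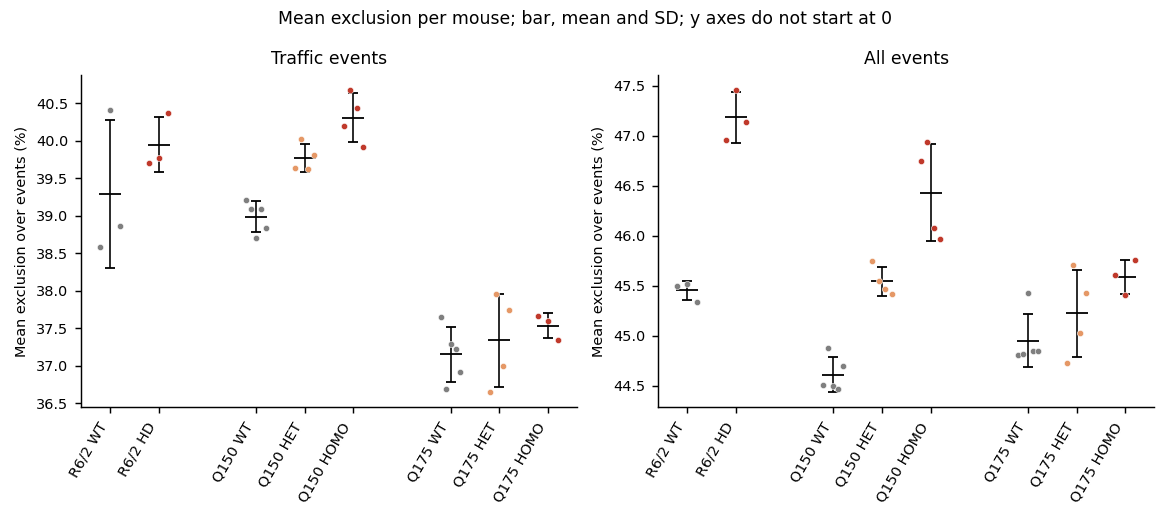
Mean exclusion in percent (y axes, which do not start at 0) over the traffic events of each list (left) and over all events (right), per mouse; bars give the mean and SD. Q150 HET and HOMO mice lie above all Q150 WT mice in the left panel, while R6/2 HD mice overlap WT there and lie clear of it in the right panel.

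Other genes of the same pathways, from a list of coat partners, Rab and Arf regulators and SNARE partners, had 30 events in R6/2, 31 in Q150 and 30 in Q175 mice. In R6/2 mice 5 passed, 2 of them higher, beside 28.6% of all events. In Q150 mice 1 passed in HET (3.47% of all events) and 6 in HOMO mice (23.9% of all events), 4 of the latter higher. In Q175 HOMO mice 2 passed, 1 of them higher, beside 7.07% of all events. Sort1, the sorting receptor sortilin, passed in R6/2 (log2 1.02), Q150 HET (0.53), Q150 HOMO (0.88) and Q175 HOMO mice (0.57), always higher. Arfgap1 event 4861, in a regulator of Golgi coats, fell in R6/2 (log2 -1.12) and Q175 HOMO mice (-0.58). A different Arfgap1 event, 8424, rose in Q150 HOMO mice (log2 0.37, limma adjusted p = 0.014). In Q175 HET mice 0 of 30 passed by limma.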

How the data were processed

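Each deposited file holds, per the file headers, a short and a long column of whole junction counts with no normalization by the authors; the unit is entered as other because commas separate the digits, and these were removed. The aligner is not given in the sources used here. The submitters' processing notes name mm10. Groups came from titles (R6/2) and the genotype field (knock-in). Titles call all knock-in mice Q150 and the genotype field names all knock-in mutants Q175, so the line was taken from the glutamine numbers of the alleles in that field. The 10 knock-in WT mice were split by the event list of their files, which is a technical property. Title and file disagree on the number of 1 Q175 HET mouse. Separate mice were taken as replicates.

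The traffic events, the role lists, the other traffic genes, the marker lists, the tests and the alternatives were chosen with earlier results of these data known, so none of them is independent support. The value fitted was log2((short + 0.5) / (long + 0.5)), in limma 3.58.1 under R 4.3.3. All mice of an event list shared 1 fit with group means, and variances were moderated along a trend on the counts. P-values were Benjamini-Hochberg adjusted over all events of the list, and an adjusted p under 0.05 is said to pass. A mean of at least 10 counts removed no event. Because of the pseudocount, changes of junctions with low counts are understated. Sums of short and long were tested as log2 CPM, the counts scaled to an equal library total, in the same way. Differences between models were tested over the events of both lists. Slopes used the number of mutant alleles.

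Named were the traffic events past the threshold, by size, up to 25 in R6/2, 20 in Q150 HOMO, 15 in Q175 HOMO mice and 10 in other comparisons, up to 5 sums per comparison, and the 3 highest and 3 lowest exclusions. Values of every mouse are given for 12 events: those past the threshold in all models, then the largest changes whose mice do not overlap. Further sums of Rims1, Rims2, Syt7 and Exoc7 and the values of Sort1 and Arfgap1 were named after they had been seen. Exclusion per mouse has a Wilson 95% interval. The tests were tried on simulated data. Alternatives were a pseudocount of 5, a mean of at least 50 counts or no minimum, no variance trend, centring on the median event, only the groups compared, all 10 knock-in WT mice, the series of mouse numbers as a term, a quasi-binomial model, another scaling of sums, other averages of exclusion, and leaving out each mouse. Probe sequences were not used here, and 1 neuronal marker is not reported here. Tables were made with pandas 2.3.3 and scipy 1.17.1 and figures with matplotlib 3.10.9.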

Additional observations from a re-analysis of the deposited data

Results flagged for a closer look

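Single mice stood apart from the others of their group in 6 of 63 sets of values examined, which were the groups of 4 or 5 mice for each of the 12 events shown per mouse and for mean exclusion, where chance gives about 1 in 20. The lowest Q175 HET mouse for Dnm2 had 69.4% exclusion, below the others at 78.7% to 79.8%. The lowest Q150 HET mouse for Vps39 had 58.0%, below 79.2% to 82.2%. For Snx16 the highest Q150 HET mouse had 18.0%, where the others reached 15.5% at most, and the highest Q175 WT mouse 15.5%, above 12.6% to 13.1%. The highest Q175 HET mouse for Dnm1l event 3927 had 32.6%, above 18.6% to 20.5%, and the highest Q175 WT mouse for Picalm event 4928 had 10.3%, where the lowest of the others had 7.40%.

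The change against WT differed between models in 15 tests. Between R6/2 and Q150 HOMO mice the differences of the log2 changes were 1.18 for Snx16, 0.72 for Reps2 and -0.84 for Snx14. Between R6/2 and Q175 HOMO mice they were 1.73 for Vps39, 1.29 for Dnm1l event 4328, 1.22 for Snx16, 1.06 for Rims2 event 6936, 0.97 for Reps2, 0.66 for Rims1 event 8012, -0.80 for Sh3pxd2a and -0.82 for Stx18. Between Q150 and Q175 HOMO mice they were 0.87 for Synj1 event 8674, 0.82 for Itsn2, 0.79 for Snx14 and -1.15 for Stx18.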

How the results depend on the processing

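No paired analysis was possible because no mouse number recurs among the mice of an event list in the labels. The replicate numbers of the knock-in groups follow only the order of listing and pair no mice. The alternatives gave 1212 values for 65 named calls, of which 991 stayed past the threshold, 221 did not and 0 changed direction. Counts of traffic events past the threshold moved as follows, and the cause was not tested. Centring gave 7 for Q150 HOMO and for the Q150 slope, 8 for Q175 HOMO, 7 for the Q175 slope and 0 for Q150 HOMO against HET. Without the variance trend they were 2 for Q150 HET, 0 for Q150 HOMO against HET, 1 for Q175 HOMO, 2 for the Q175 slope, 0 for Q150 against Q175 and 3 for Q175 HOMO sums. With the series as a term they were 5 for Q150 HET, 2 for Q150 HOMO against HET and 3 for Q175 HOMO sums. Another scaling of sums gave 1 for Q175 HET.

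With each mouse left out, ratio counts ran from 10 to 18 in R6/2, from 0 to 2 in Q150 HET, from 4 to 15 in Q150 HOMO, from 0 to 1 in Q150 HOMO against HET, from 8 to 14 for the Q150 slope, from 0 to 1 in Q175 HET, from 2 to 5 in Q175 HOMO and for the Q175 slope, and 0 throughout in Q175 HOMO against HET. Differences between models ran from 1 to 4 (R6/2 and Q150), 5 to 9 (R6/2 and Q175) and 0 to 4 (Q150 and Q175). Sums ran from 26 to 30 in R6/2, from 6 to 13 in Q150 HOMO, from 2 to 6 in Q175 HOMO, from 0 to 2 in Q175 HET and stayed at 0 in Q150 HET. The difference in mean exclusion ran from 0.308 to 1.22 points in R6/2, from 0.704 to 0.842 in Q150 HET, from 1.20 to 1.45 in Q150 HOMO, from -0.0237 to 0.414 in Q175 HET and from 0.262 to 0.502 in Q175 HOMO mice. As a median over events it was -1.34 in R6/2, 2.44 in Q150 HET, 5.77 in Q150 HOMO, 2.63 in Q175 HET and -2.32 in Q175 HOMO mice.

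Among the 12 events shown per mouse, counting error was widest for Vps39, Dnm1l event 3927 and Bin1, with intervals of exclusion up to 24.0, 17.7 and 12.4 points wide in a mouse, and other traffic events had fewer counts, down to 21 in a mouse.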
